A study of Mus musculus with 12 samples.

Results

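The TNF superfamily ligands and receptors described here are 10 genes of 43278 gene symbols measured by RNA sequencing in mouse peritoneal macrophages (PMφs), taken by name as the ligand genes Tnf, Tnfsf9, Tnfsf10 and Tnfsf15 and the receptor genes Fas, Tnfrsf1a, Tnfrsf1b, Tnfrsf26, Tnfrsf12a and Tnfrsf21. PMφs are macrophages that an injection of thioglycolate draws into the peritoneum, from which they are washed out and put in culture. The cells came from wild-type C57BL/6J mice of 8 to 12 weeks, up to 10 animals an experiment, and the cells of littermates of both sexes were mixed before they were divided among the groups. The 12 poly(A) libraries fall into 4 groups of 3, which are control PMφs, PMφs cultured with 100 µg/ml oxidized low-density lipoprotein (oxLDL) for 24 h, PMφs stimulated with LPS at 10 ng/ml, and PMφs that received both (oxLDL+LPS). No group carries a transgene or deletion, and the length of LPS stimulation is not stated for these libraries. LPS is the bacterial lipopolysaccharide that signals through TLR4, and oxLDL loads macrophages with modified lipoprotein lipid. The comparisons ask how LPS changes these genes, whether oxLDL changes them at rest or under LPS, and whether the effect of LPS differs with oxLDL.

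TNF superfamily ligands are mostly trimeric type II membrane proteins, some of which are also released by proteases, and they act by clustering receptors of the TNF receptor superfamily. Receptors with an intracellular death domain, such as TNFR1 and FAS, can engage caspase-8 or RIPK kinases. Receptors without it, such as TNFR2, recruit TRAF adaptors and activate NF-κB and MAPK pathways, an activation that is not confined to them. Macrophages stimulated through TLR4 are a classical source of TNF.

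The libraries held 16.73 M to 26.17 M implied reads on genes, and the deposited values, called normalized counts here, summed to between 17.15 M and 26.38 M per library. The 6 matched genes of the macrophage list (Csf1r, Cd68, Lyz2 and others) summed to between 225490 and 295315 normalized counts in every group. The T cell list summed to between 2 and 14 and the NK cell list to between 0 and 6, so the defining genes of these ligand-expressing lymphocytes were at or near 0. The B cell list summed to 38 to 83, the mast cell list to 21 to 99 and the neutrophil list to 238 to 1725. The eosinophil list was lower with LPS, at 319 to 385 in control, 182 to 305 in oxLDL, 104 to 125 in LPS and 58 to 107 in oxLDL+LPS libraries, nearly all of it Siglecf, while Epx and Prg2 were at 0 or 1 everywhere. Cxcr2 of the neutrophil list moved the same way, from 38 to 43 in control to 1 to 2 in LPS libraries. S100a8 of that list went the other way, from 31 to 37 in control to 74 to 178 in LPS libraries. Mmp8 was uneven, at 168, 212 and 1274 in control and 366, 153 and 571 in LPS libraries, so the neutrophil list as a whole showed no fall. Siglecf and Cxcr2 thus moved alongside the receptor genes that were lower with LPS. Ccr3 of the eosinophil list did not fall, at 4, 1 and 2 in control and 5, 3 and 1 in LPS libraries. The part of eosinophils or neutrophils in the results of those receptor genes was not tested. The mesothelial and fibroblast list was uneven, at 4419 to 27474, highest in the library of number 1 and lowest in that of number 3 in each group. In bulk samples, fewer cells of a type and less RNA per cell cannot be told apart.

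The stretches just before the starts of 5 members are shown because these genes cover the patterns described below, namely the steep rises under LPS (Tnf and Tnfsf15), the smaller rises of receptors (Fas and Tnfrsf1b) and a fall (Tnfrsf21). Capitals mark letters that matched a searched motif. The sequences are RefSeq promoter sequences on GRCm38.p6, read 5′ to 3′ on the strand of the gene, and the Tnfsf15 stretch ends before the gene start of the GENCODE annotation.
Tnf, chr17:35202008-35202257, minus strand: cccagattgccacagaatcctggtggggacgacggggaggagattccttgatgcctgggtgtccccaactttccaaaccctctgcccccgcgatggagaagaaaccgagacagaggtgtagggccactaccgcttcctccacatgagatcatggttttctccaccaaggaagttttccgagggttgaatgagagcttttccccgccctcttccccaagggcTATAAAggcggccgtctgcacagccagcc
Tnfsf15, chr4:63745114-63745309, minus strand: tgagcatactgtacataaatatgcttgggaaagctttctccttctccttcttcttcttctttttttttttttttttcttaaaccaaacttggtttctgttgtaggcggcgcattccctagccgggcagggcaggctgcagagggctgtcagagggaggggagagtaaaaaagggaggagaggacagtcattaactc
Fas, chr19:34290409-34290658, plus strand: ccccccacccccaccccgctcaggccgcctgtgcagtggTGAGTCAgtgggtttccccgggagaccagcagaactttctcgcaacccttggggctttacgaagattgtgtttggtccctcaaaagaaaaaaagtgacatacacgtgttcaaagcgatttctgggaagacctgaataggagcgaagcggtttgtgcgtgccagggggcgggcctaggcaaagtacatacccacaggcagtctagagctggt
Tnfrsf1b, chr4:145246871-145247120, minus strand: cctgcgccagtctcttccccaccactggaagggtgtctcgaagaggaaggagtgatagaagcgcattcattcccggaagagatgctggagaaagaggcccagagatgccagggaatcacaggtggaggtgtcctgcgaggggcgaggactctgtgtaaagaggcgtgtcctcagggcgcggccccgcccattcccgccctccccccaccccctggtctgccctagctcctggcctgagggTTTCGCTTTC
Tnfrsf21, chr17:43016305-43016554, plus strand: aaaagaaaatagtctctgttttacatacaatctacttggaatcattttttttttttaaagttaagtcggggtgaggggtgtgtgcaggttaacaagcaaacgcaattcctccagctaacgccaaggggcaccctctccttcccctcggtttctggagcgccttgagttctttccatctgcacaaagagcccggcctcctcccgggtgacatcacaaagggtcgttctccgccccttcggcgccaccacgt

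Promoter sequences were matched by symbol for 8 of the 10 members, the exceptions being Tnfsf9 and Tnfrsf26, and the 250 bases before each RefSeq start were searched on both strands for 5 motifs. The TATA box (TATAAA) occurred in Tnf from base -29 to -24 before the start, and 12.4% of 32851 promoters of this length hold it. The AP-1 motif (TGANTCA) occurred in Fas from -211 to -205, against 6.75% of all promoters. The interferon-stimulated response element occurred in Tnfrsf1b from -10 to -1 on the opposite strand, against 2.98% of all promoters. The kB motif of NF-κB, held by 3.90% of all promoters, and the antioxidant response element (TGACNNNGC), held by 10.2%, occurred in 0 of the 8. These motifs do not overlap each other in the stretches shown. A match of letters is not evidence that a factor binds, and the absence of a match concerns these 250 bases alone.

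Levels of different genes were compared as normalized count per kb of exon, in which 5 of the 6 receptor genes stood above all 4 ligand genes in control PMφs and Fas overlapped with Tnf. Tnfrsf1b, the gene of TNFR2, had the highest level, with a mean of 3862 per kb, followed by Tnfrsf1a, the gene of TNFR1, with 1012 per kb. Tnfrsf21, the gene of death receptor 6, followed at 481.9 per kb, Tnfrsf26 at 271.5 per kb and Tnfrsf12a, the gene of the TWEAK receptor FN14, at 134.4 per kb. Tnf at 39.1 per kb and Fas at 32.8 per kb came next, and the ranges of their libraries overlapped. Tnfsf9 had 17.6 per kb, Tnfsf15 1.69 per kb and Tnfsf10 1.08 per kb, the last pair with overlapping ranges. With LPS the order was rearranged, since Tnf (mean 38101 per kb, 22384 to 52007 over libraries) and Tnfrsf1b (25484 per kb, 22539 to 30054) then overlapped at the top. Tnfrsf1a (2284 per kb) and Tnfsf9 (1969 per kb) overlapped, as did Tnfsf9 and Tnfsf15 (1311 per kb). Tnfsf10 (509.3 per kb) overlapped with Fas (343 per kb), and the lowest levels were those of Tnfrsf21 (150 per kb), Tnfrsf26 (126.6 per kb) and Tnfrsf12a (92.5 per kb), each overlapping with its neighbour. Per length, Tnf transcripts thus stood below those of both of its receptors at rest and above those of Tnfrsf1a in every LPS library.

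**Figure D1:**
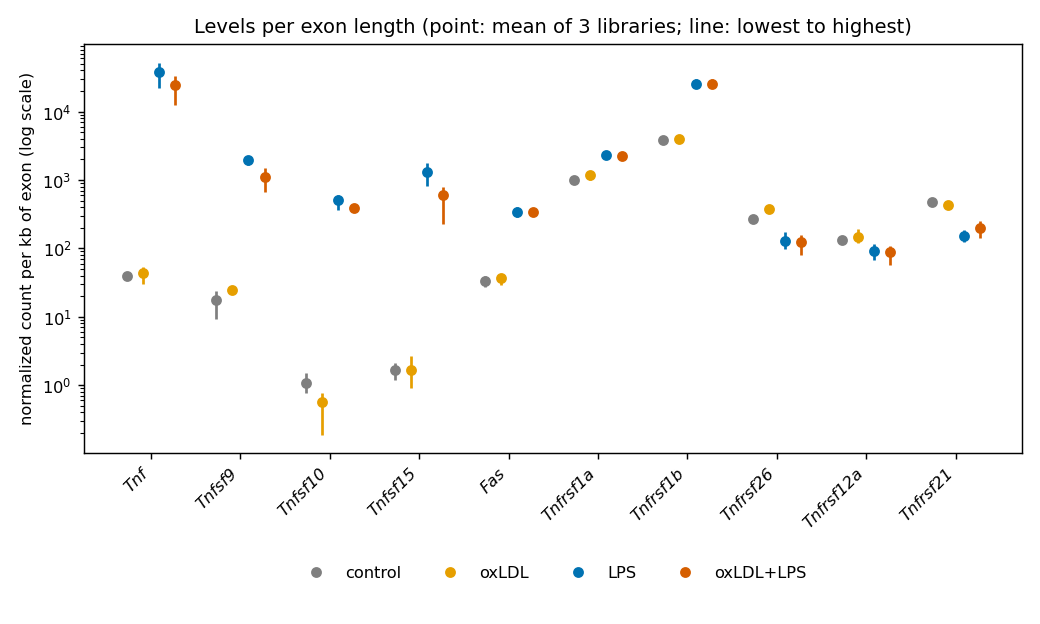
Normalized count per kb of exon (log axis) of the 10 genes in control, oxLDL, LPS and oxLDL+LPS PMφs, where points are means of 3 libraries and lines run from the lowest to the highest library. The 4 ligand genes on the left span orders of magnitude between groups without and with LPS, whereas Tnfrsf1b moves from 3862 to 25484 per kb and the 3 receptors on the right lie lower with LPS.

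LPS raised all 4 ligand genes and 3 receptor genes and lowered the other 3 receptor genes, both in PMφs without oxLDL and in PMφs with it. For each of the 10 genes in each background, the 3 libraries with LPS did not overlap with the 3 without it. The share of all genes that separate in this way was not counted, so whether the separation is particular to the members is not known. The test was limma's, fitted to log2(normalized count + 1), so a fold change is on that scale, which understates the change of genes near 0. A gene was called at a Benjamini-Hochberg adjusted p under 0.1 over all genes tested. LPS changed much of the transcriptome, with 31.4% of 13023 genes tested called higher and 30.3% called lower against control, beside 7 and 3 of the 10 members. Between oxLDL+LPS and oxLDL the shares were 28.2% and 26.3% of 12900 genes, again beside 7 and 3 members. The median log2 fold change of the 10 members was 3.04 against control, and that of all genes tested lay at -0.00097. The member median is a description only, since the members were chosen with earlier results of these data known. In addition, Tnfsf10 and Tnfsf15 reached the 10 normalized counts needed for testing in their LPS libraries alone. Rescaling all libraries to the same total moved the median of all genes to -0.48 and the calls to 2170 higher and 7224 lower, and quantile normalization gave 3243 higher and 4816 lower against 4093 and 3946 in the values as deposited. Between oxLDL+LPS and oxLDL the calls were 3633 higher and 3397 lower as deposited, 2031 and 6660 after rescaling and 2848 and 4283 after quantile normalization. All 10 members kept their direction and their call under both scalings.

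Tnf encodes the cytokine TNF and lies on chromosome 17 of GRCm38 (chr17:35199381-35202007, minus strand). Its normalized count was 68, 61 and 63 in the control libraries of numbers 1, 2 and 3 and 36687, 65418 and 85240 in the LPS libraries. The means were 64.0 ± 3.61 and 62448 ± 24410 (SD, n = 3), a log2 fold change of 9.83 with a standard error (SE) of 0.27 and an adjusted p of 2.38e-07. The LPS libraries differed from each other by more than the control libraries did, but the lowest of them was still far above all libraries without LPS. With oxLDL the counts were 50, 76 and 89, and with oxLDL+LPS 20752, 45676 and 53561. That was a log2 fold change of 9.03 (SE 0.37, adjusted p = 2.67e-06) between means of 71.7 ± 19.9 and 39996 ± 17130.

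Tnfsf15 (chr4:63727084-63745113, minus strand) encodes TL1A, the ligand of the death domain receptor DR3. Control libraries had 6, 7 and 4 normalized counts and LPS libraries 2763, 4397 and 6004. The log2 fold change was 9.32 (SE 0.30, adjusted p = 4.10e-07), between means of 5.67 ± 1.53 and 4388 ± 1621. Tnfsf15 was therefore close to undetected in every library without LPS, since the oxLDL libraries had 3, 9 and 5. The oxLDL+LPS libraries had 754, 2617 and 2626, for a log2 fold change over oxLDL of 8.12 (SE 0.55, adjusted p = 2.67e-05). The library of number 1 was the lowest of the 3 under LPS and under oxLDL+LPS, as it was for Tnf.

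Tnfsf10 (chr3:27317028-27342427, plus strand) encodes TRAIL, a ligand that can induce apoptosis. It had 4, 8 and 5 normalized counts in control, 2991, 1914 and 3141 in LPS, 1, 4 and 4 in oxLDL and 2138, 1926 and 2124 in oxLDL+LPS libraries. LPS thus took the gene from at most 8 counts to at least 1914, with log2 fold changes of 8.66 (SE 0.28, adjusted p = 3.86e-07) without and 9.13 (SE 0.36, adjusted p = 2.23e-06) with oxLDL.

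Tnfsf9 (chr17:57105325-57107757, plus strand) encodes 4-1BB ligand, a costimulatory molecule. The counts were 25, 31 and 12 in control, 2102, 2809 and 2710 in LPS, 30, 30 and 34 in oxLDL and 866, 1916 and 1507 in oxLDL+LPS libraries. Its log2 fold change was 6.83 (SE 0.32, adjusted p = 2.04e-06) without oxLDL and 5.40 (SE 0.28, adjusted p = 7.30e-06) with it. The exons of Tnfsf9 share 192 bases with Gm11110 on the opposite strand, and whether the counting used strand is not stated.

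**Figure D2:**
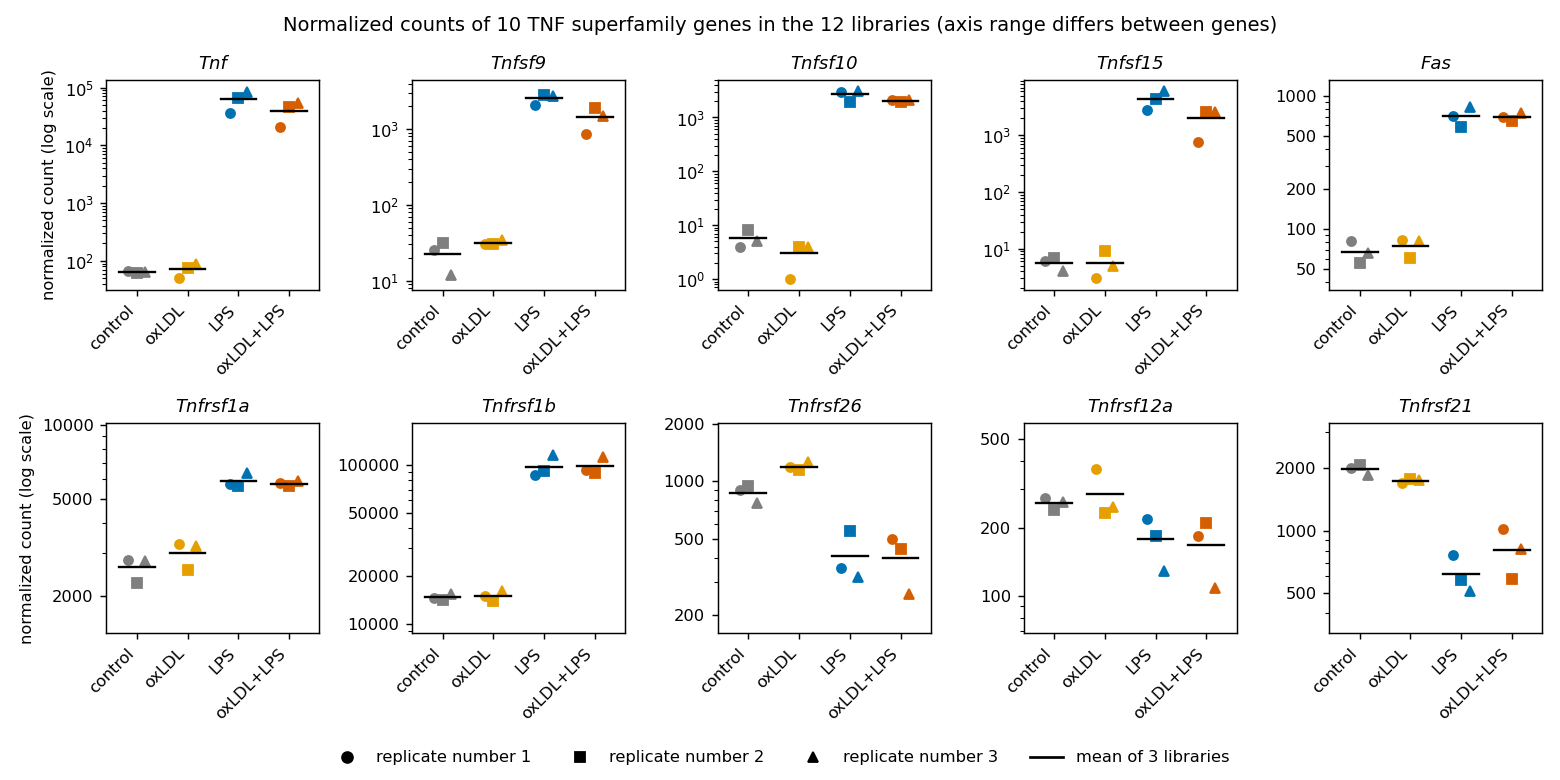
Normalized counts (log axis, with a range of its own for each gene) of the 10 genes in control, oxLDL, LPS and oxLDL+LPS PMφs, with 1 point a library, a shape for each replicate number and a bar at the mean of 3. Libraries with and without LPS are separated for every gene, from Tnf (50 to 89 against 20752 to 85240) to Tnfrsf12a (234 to 370 against 109 to 221). The share of all genes that separate was not counted.

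Among the receptors, Fas (chr19:34290666-34327772, plus strand) encodes the death receptor CD95. Control libraries had 81, 56 and 66 normalized counts and LPS libraries 709, 587 and 826, a log2 fold change of 3.37 (SE 0.19, adjusted p = 5.00e-06). Fas was at a similar level with oxLDL, at 83, 61 and 82 without LPS and 691, 646 and 747 with it. The log2 fold change over oxLDL was 3.20 (SE 0.16, adjusted p = 5.75e-06). The difference between these changes was -0.17 on the log2 scale (blocked adjusted p = 0.627 for the interaction described below).

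The receptors of TNF itself rose by different amounts. Tnfrsf1b (chr4:145213463-145246870, minus strand), whose product TNFR2 lacks a death domain, had 14612, 14167 and 15455 normalized counts in control and 86052, 91097 and 114747 in LPS libraries, a log2 fold change of 2.71 (SE 0.15, adjusted p = 5.23e-06). With oxLDL it had 14910, 13970 and 16069, and with oxLDL+LPS 92331, 88553 and 112637, a log2 fold change of 2.70 (SE 0.14, adjusted p = 8.24e-06). Tnfrsf1a (chr6:125349362-125362484, plus strand), whose product TNFR1 has a death domain, had 2824, 2261 and 2781 in control and 5736, 5635 and 6379 in LPS libraries. Its log2 fold change was 1.18 (SE 0.11, adjusted p = 8.84e-05) without oxLDL. With oxLDL it rose from 3268, 2567 and 3204 to 5777, 5621 and 5891, a log2 fold change of 0.94 (SE 0.11, adjusted p = 0.000359). The means of the groups rose by 6.60 times for Tnfrsf1b and by 2.26 times for Tnfrsf1a with LPS alone, a difference between genes that was not tested.

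The other 3 receptor genes fell with LPS. Tnfrsf21 (chr17:43016555-43089189, plus strand) encodes death receptor 6, for which a fragment of the amyloid precursor protein is a reported ligand. It had 2016, 2073 and 1851 normalized counts in control and 762, 577 and 510 in LPS libraries, a log2 fold change of -1.70 (SE 0.15, adjusted p = 5.49e-05). With oxLDL it had 1702, 1784 and 1748, and with oxLDL+LPS 1019, 586 and 819, a log2 fold change of -1.15 (SE 0.19, adjusted p = 0.00197). Every LPS library was thus below every library without LPS in both backgrounds.

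Tnfrsf26 (chr7:143607659-143628722, minus strand) is a mouse gene that lies beside Tnfrsf22 and Tnfrsf23, which encode decoy receptors of TRAIL. Its counts were 898, 949 and 774 in control, 354, 552 and 316 in LPS, 1184, 1141 and 1263 in oxLDL and 498, 444 and 258 in oxLDL+LPS libraries. The log2 fold change was -1.14 (SE 0.21, adjusted p = 0.00239) without oxLDL and -1.63 (SE 0.23, adjusted p = 0.00104) with it. The neighbours fell as well, Tnfrsf22 by 1.18 (adjusted p = 0.000652) and Tnfrsf23 by 1.07 (adjusted p = 0.000880) on the log2 scale without oxLDL. Tnfrsf22 had 154 to 199 normalized counts in control and 69 to 85 in LPS libraries, and Tnfrsf23 had 348 to 430 and 154 to 216. The 3 genes are related in sequence, and reads shared between them may have been counted for either. The exons of Tnfrsf26 and Tnfrsf23 also overlap with E230032D23Rik on the opposite strand, over 107 and 164 bases.

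Tnfrsf12a (chr17:23675445-23677468, minus strand) encodes FN14, the receptor of TWEAK. It had 275, 242 and 262 normalized counts in control and 221, 186 and 129 in LPS libraries, a log2 fold change of -0.57 (SE 0.20, adjusted p = 0.0450). With oxLDL it had 370, 234 and 249, and with oxLDL+LPS 185, 212 and 109, a log2 fold change of -0.77 (SE 0.29, adjusted p = 0.0596). This was the smallest change of the 10 and the one that single libraries decided. Without control replicate 1 or 3 the adjusted p against control was 0.123 or 0.103, and without oxLDL replicate 1 or oxLDL+LPS replicate 3 that against oxLDL was 0.183 or 0.136. In the LPS libraries Tnfrsf12a followed the order of the mesothelial and fibroblast list, whose sum was 27474 in the highest and 5160 in the lowest of them, but it did not in the other 3 groups, and the part of those cells in the result was not tested.

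**Figure D3:**
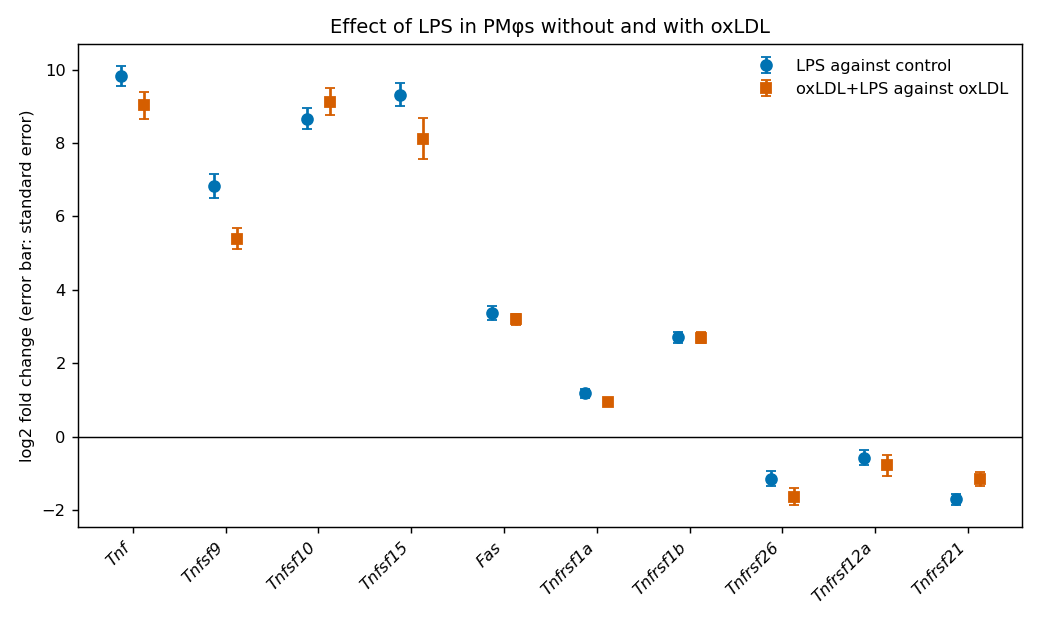
Log2 fold change of the 10 genes with LPS, as LPS against control (circles) and oxLDL+LPS against oxLDL (squares), from 3 libraries a group with the standard error as bar. Ligand genes lie between 5.40 and 9.83, Fas, Tnfrsf1a and Tnfrsf1b between 0.94 and 3.37, and Tnfrsf26, Tnfrsf12a and Tnfrsf21 between -1.70 and -0.57.

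The partners of the members did not all move with them. Tnfsf12, the gene of TWEAK, fell along with the gene of its receptor Tnfrsf12a, from 2359, 2611 and 2356 normalized counts in control to 659, 854 and 750 in LPS libraries, a log2 fold change of -1.70 (adjusted p = 1.32e-05). Tnfsf12 shares 731 exon bases with the read-through gene Tnfsfm13, between which the counting could have split reads. Lta, the gene of lymphotoxin-α, which binds the same receptors as TNF, was at 0 in all 3 control libraries and at 47, 100 and 88 with LPS (adjusted p = 1.47e-05). App, the gene of the amyloid precursor protein, rose from 11442 to 13867 in control to 21608 to 23546 with LPS, a log2 fold change of 0.83 (adjusted p = 0.000574). Tnfrsf10b, the gene of the TRAIL receptor, had 67, 37 and 25 in control and 93, 72 and 38 with LPS, a log2 fold change of 0.66 with an adjusted p of 0.238, which is not a call. With the replicate number as a block its adjusted p was 0.0246. Tnfrsf9, the gene of 4-1BB, had 12, 64 and 7 with LPS and at most 4 without it, and was not tested against control because too few libraries reached 10. Fasl reached at most 1 and Tnfrsf25, the gene of DR3, at most 7 in any library. The shedding of TNF from the cell surface requires the protease ADAM17 and the rhomboid protein iRhom2, whose gene is Rhbdf2. Adam17 rose from 4294, 5033 and 4158 to 10507, 11778 and 11528 with LPS, a log2 fold change of 1.33 (adjusted p = 3.55e-05), and Rhbdf2 from 1154, 1325 and 1162 to 6593, 6779 and 7890, a log2 fold change of 2.54 (adjusted p = 1.13e-06).

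Of 14 other TNF family ligand genes, 8 passed the filter against control, of which 5 rose and 2 fell with LPS, beside 31.4% and 30.3% of all genes tested. Tnfsf4, the gene of OX40 ligand, had 1 normalized count in each control library and 64 to 75 with LPS (adjusted p = 8.46e-06). Tnfsf8 rose to 14 to 26 (adjusted p = 0.00103) and Tnfsf18 to 10 to 19 (adjusted p = 0.00577), from 0 to 3 in control libraries, and Tnfsf13 fell by 1.29 on the log2 scale (adjusted p = 0.00462). Like Tnfsf12, Tnfsf13 shares exon bases with the read-through gene Tnfsfm13 (983 bases), between which the counting could have split reads. Of 22 other receptor genes, 13 were tested, 4 rose and 3 fell, shares near the 31.4% and 30.3% over all genes. Cd40, which encodes the costimulatory receptor CD40, moved most, from 37 to 41 normalized counts in control to 14731, 16081 and 29100 with LPS, a log2 fold change of 8.90 (adjusted p = 2.35e-07). Tnfrsf8 rose by a log2 fold change of 3.64 (adjusted p = 1.99e-06) and Tnfrsf14 by 2.70 (adjusted p = 1.65e-05), while Tnfrsf13b fell by 1.13 (adjusted p = 0.000477). Medians of the log2 fold change were 2.60 over the 8 ligands and 0.17 over the 13 receptors tested, beside -0.00097 over all genes. The 5 ligand genes that rose had at most 7 normalized counts in any control library and passed the filter through the LPS libraries alone. Their rise was thus set by the filter. Neither their count beside the share of all genes, nor their adjusted p, nor the median is a measure of the whole family.

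All 36 TNF signalling genes found in the table were tested, and 24 rose and 2 fell with LPS, beside 31.4% and 30.3% of all genes, with a median log2 fold change of 1.07. The genes with the smallest p were Mlkl, the effector of necroptosis (4.46, adjusted p = 3.34e-07), Cflar, an inhibitor of caspase-8 activation (3.90, adjusted p = 3.44e-07), and Tnip1, a partner of A20 (2.84, adjusted p = 3.57e-07). Zc3h12a, the gene of an RNase that degrades inflammatory mRNAs, rose by 3.70 (adjusted p = 4.78e-07), Traf1, an adaptor of TNFR2, by 5.72 (adjusted p = 6.73e-07) and Tnfaip3, the gene of the ubiquitin editor A20, by 4.59 (adjusted p = 7.07e-07). In PMφs with oxLDL, 24 rose and 1 fell of the same 36 genes, as did 3 and 2 of 7 ligand genes and 4 and 3 of 14 receptor genes tested there, beside 28.2% and 26.3% of all genes. The low ligand genes again passed the filter through the libraries with LPS. The lists were written with results of these data known, and their counts are given as descriptions.

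**Figure D4:**
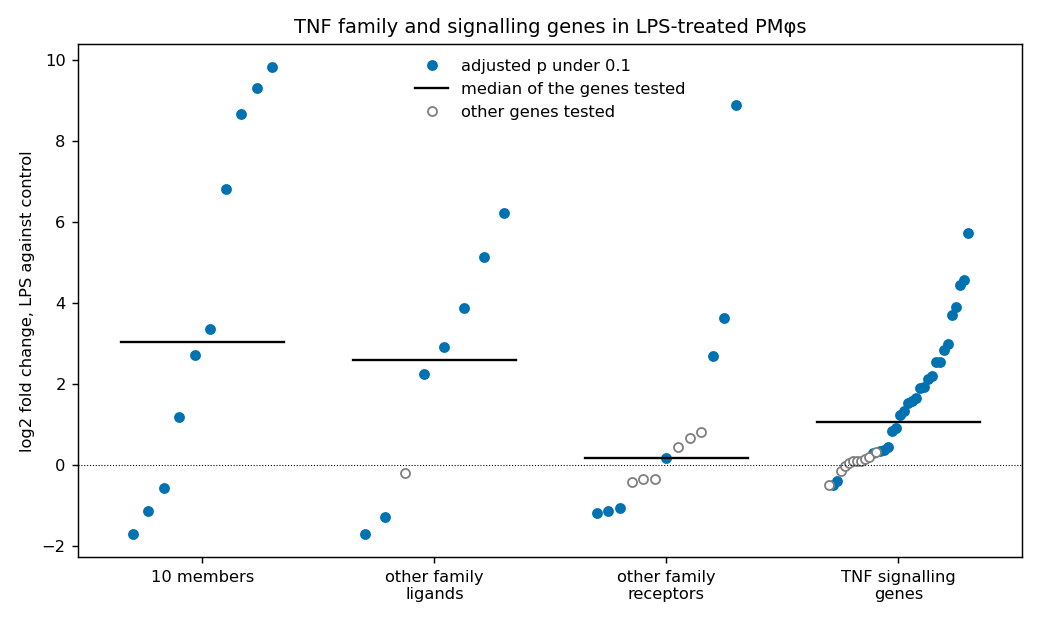
Log2 fold change with LPS against control of the genes tested among the 10 members, 14 other ligands, 22 other receptors and 36 signalling genes, in order of size, where filled points had an adjusted p under 0.1 and bars are medians. The medians are 3.04, 2.60, 0.17 and 1.07, and the highest point of the receptors is Cd40 at 8.90.

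Without LPS, oxLDL changed 0 of the 8 members tested, beside 0% of 12751 genes, at an adjusted p under 0.1 from limma, and 2 of the 8 had an unadjusted p under 0.05, as did 381 of all genes. Tnfsf10 and Tnfsf15 stayed under 10 normalized counts in all 6 libraries and were not tested. The replicate number paired the libraries, and with it as a block 3 members were called, Tnfrsf1a and Tnfrsf26 higher and Tnfrsf21 lower, beside 1.80% of all genes higher and 2.92% lower. Tnfrsf26 was the member that moved most of the 3, by a log2 fold change of 0.46 (SE 0.091, adjusted p = 0.748; with the block 0.073 and 0.0109). Its oxLDL libraries (1184, 1141 and 1263) were all above its control libraries (898, 949 and 774), a direction opposite to that with LPS. Tnfrsf21 and some genes of the other lists did not overlap between these groups either. The share of all genes without overlap was not counted, so this is no separate support for an effect of oxLDL. Tnfrsf1a differed by 0.20 (adjusted p = 1, with the block 0.0309), and its oxLDL library was 116%, 114% and 115% of the control library in numbers 1, 2 and 3. Tnfrsf21 differed by -0.18 (adjusted p = 1, with the block 0.0795), with oxLDL libraries at 84.4%, 86.1% and 94.4% of control. Of the other lists, 0 genes were called without the block, and with it the signalling genes Rc3h1 (-0.34, adjusted p = 0.0109) and Traf3 (-0.20, adjusted p = 0.0891) were called lower. The blocked calls of the members depended on single numbers, since 0 members were called without number 1, 1 (Tnfrsf26) without number 2 and 3 without number 3. For the other members tested, the log2 differences were 0.12 for Tnf, 0.55 for Tnfsf9, 0.16 for Fas, 0.02 for Tnfrsf1b and 0.10 for Tnfrsf12a, with blocked adjusted p of 0.388 or more. Among these 5 members, the 95% interval of the blocked difference was widest for Tnfsf9 (-0.081 to 1.17) and narrowest for Tnfrsf1b (-0.091 to 0.13).

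Under LPS, the means of the 4 ligand genes were lower with oxLDL than without it, at 45.6% (Tnfsf15) to 76.9% (Tnfsf10) of LPS alone, whereas those of Fas, Tnfrsf1a and Tnfrsf1b were at 97.4% to 101%. Without the block, 0 of 10 members were called, beside 0% of 12786 genes, while 2 of the 10 and 890 of all genes had an unadjusted p under 0.05. With the replicate number as a block, 4 members were called lower, which were the 4 ligand genes, and 1 higher, which was Tnfrsf21, beside 8.74% of all genes lower and 4.42% higher. The same 5 members were called in the blocked fit without number 2, but 0 members and 0 genes without number 1 or without number 3, fits that rest on 2 pairs.

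Tnfsf15 had the largest difference. Its oxLDL+LPS libraries (754, 2617 and 2626) were all below its LPS libraries (2763, 4397 and 6004), at 27.3%, 59.5% and 43.7% of the LPS library of the same number. The log2 difference was -1.27 (SE 0.52, adjusted p = 0.705), and the block brought the SE to 0.17 and the adjusted p to 0.00615. Tnfsf9 likewise did not overlap between the groups, at 866, 1916 and 1507 with oxLDL+LPS against 2102, 2809 and 2710 with LPS, or 41.2%, 68.2% and 55.6% by number. It differed by -0.89 (SE 0.28, adjusted p = 0.698; with the block 0.12 and 0.00648). In both genes the library pair of number 1 differed most and that of number 2 least. The share of all genes without overlap between these groups was not counted, so the lack of overlap is no separate support for an effect of oxLDL.

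Tnf overlapped between the groups, with 20752, 45676 and 53561 against 36687, 65418 and 85240, but was lower in each pair, at 56.6%, 69.8% and 62.8% of LPS alone. The log2 difference was -0.67 (SE 0.44, adjusted p = 0.777; with the block 0.13 and 0.0213). Tnfsf10 was at 71.5%, 101% and 67.6% by number, thus lower in 2 of 3 pairs, and differed by -0.35 (SE 0.19, adjusted p = 0.750; with the block 0.11 and 0.0880). Tnfrsf21, the member called higher with the block, was at 134%, 102% and 161% of LPS alone. It differed by 0.37 (SE 0.23, adjusted p = 0.765; with the block 0.12 and 0.0879).

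The remaining receptors were not called between LPS and oxLDL+LPS. Fas differed by -0.01 on the log2 scale, Tnfrsf1a by -0.04, Tnfrsf1b by 0.01, Tnfrsf26 by -0.04 and Tnfrsf12a by -0.10, and their blocked adjusted p was 0.680 or more. The 95% interval of the blocked difference ran from -0.20 to 0.17 for Fas, from -0.21 to 0.14 for Tnfrsf1a and from -0.36 to 0.39 for Tnfrsf1b, which leaves room for differences of that size. Tnfrsf1a libraries of oxLDL+LPS were at 101%, 99.8% and 92.4% of LPS alone and Tnfrsf1b libraries at 107%, 97.2% and 98.2%. The pairs of the other receptors were more spread, with Tnfrsf26 at 141%, 80.4% and 81.7% (interval of the blocked difference -0.37 to 0.30) and Tnfrsf12a at 83.7%, 114% and 84.5% (-0.40 to 0.19).

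**Figure D5:**
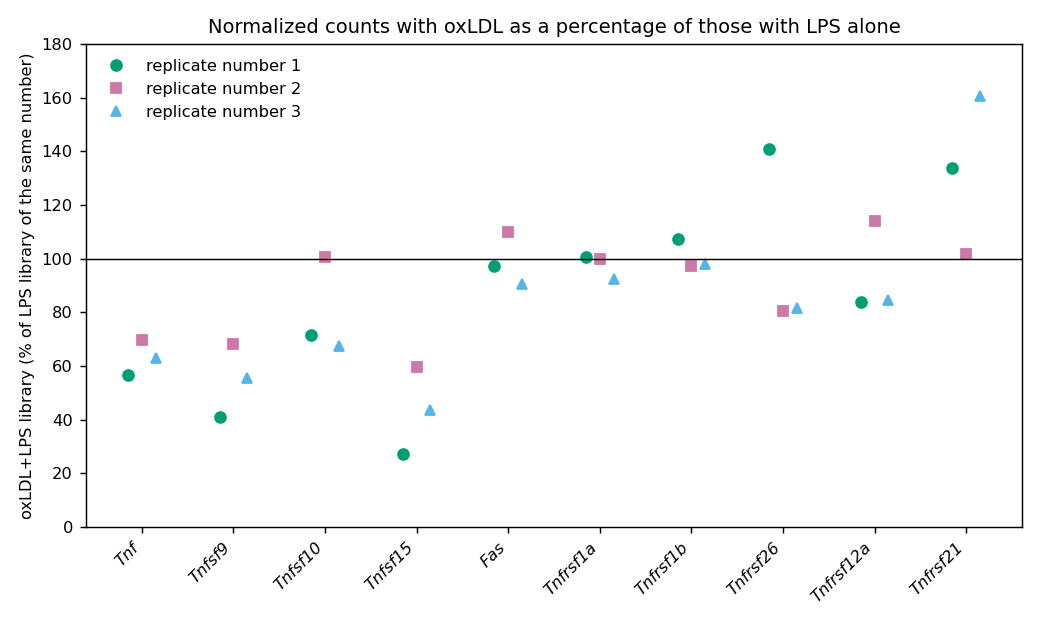
Normalized count of each oxLDL+LPS library as a percentage of the LPS library of the same replicate number, for the 10 genes, with a line at 100%. Tnf, Tnfsf9 and Tnfsf15 lie below the line in all 3 numbers (27.3% to 69.8%), Tnfsf10 in 2 of 3, Tnfrsf21 above it in all 3, and Fas, Tnfrsf1a and Tnfrsf1b between 90.4% and 110%.

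In the blocked fit of oxLDL+LPS against LPS, 3 of 8 ligand genes, 3 of 15 receptor genes and 8 of 36 signalling genes were called lower and 0, 0 and 1 higher, beside 8.74% and 4.42% of all genes, against 0 in each list without the block. Without number 1 or number 3, that fit called 0 genes of the whole table. The ligands were Tnfsf4 (-1.06, blocked adjusted p = 0.0235), Lta (-0.78, 0.0565) and Tnfsf11 (-1.21, 0.0615). The receptors were Tnfrsf14 (-0.40, 0.0187), Cd40 (-0.62, 0.0307) and Tnfrsf8 (-0.41, 0.0481). Among signalling genes, Rc3h1 (-0.49, 0.00896), Zc3h12a (-0.54, 0.0103) and Zfp36 (-0.46, 0.0301), which encode proteins that destabilize mRNAs of inflammatory genes, were lower, as were Tnfaip3 (-0.77, 0.0106), Traf1 (-0.52, 0.0187) and Rhbdf2 (-0.39, 0.0406). Adam17 differed by -0.07 (blocked adjusted p = 0.658). Of the called genes named here, Tnfsf4, Tnfrsf8, Rc3h1, Tnfaip3 and Rhbdf2 did not overlap between LPS and oxLDL+LPS libraries, and the other 7 did. These genes were named for their small blocked p in the same comparison, and the share of all genes without overlap was not counted. The lack of overlap is therefore no separate support for an effect of oxLDL.

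Whether the effect of LPS differed with oxLDL was tested as an interaction over all 12 libraries, which called 0 of 10 members, beside 0% of 13482 genes, with 1 member and 418 genes at an unadjusted p under 0.05. The terms were -1.44 for Tnfsf9, -1.20 for Tnfsf15, -0.79 for Tnf, 0.46 for Tnfsf10 and 0.56 for Tnfrsf21 on the log2 scale. With the replicate number as a block within each LPS state, 1.09% of genes were called and 0 members, the smallest blocked adjusted p among them being 0.1003 for Tnfsf9, then 0.122 for Tnf, 0.134 for Tnfrsf21 and 0.163 for Tnfsf15. Thus no difference between the effect of oxLDL on a member under LPS and at rest passed the test. The positive term of Tnfsf10 rests on oxLDL libraries of 1, 4 and 4 counts. That of Tnfsf15 rests on control libraries of 6, 7 and 4 and oxLDL libraries of 3, 9 and 5 counts. The term of Tnfsf9 holds its difference of -0.89 under LPS and that of 0.55 without LPS. The latter comes from control libraries of 25, 31 and 12 and oxLDL libraries of 30, 30 and 34 counts. Of the signalling genes, Tnfaip3 (-0.94, adjusted p = 0.0463) and Zc3h12a (-0.55, adjusted p = 0.0621) had a term that was called with this block, and both calls are lost with the replicate number as 1 block over all 12 libraries, which called 0 of 13482 genes.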

How the data were processed

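Poly(A) RNA of 12 PMφ cultures was sequenced. The authors used Trimmomatic 0.32 for trimming, STAR 2.5.1b for alignment to GRCm38 (mm10) and featureCounts for counting reads over the exons of GENCODE genes. The signal they deposited gives 43278 symbols a whole number in every library and keeps the spacing of counts multiplied by 1 factor per library (0.7635 to 1.413) and rounded, so tests for raw counts were not run. Whether counting used strand is not stated in the sources used here. Implied reads are the totals divided by these factors.

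Groups were compared with limma 3.58.1 in R 4.3.3 (lmFit, eBayes with trend) on log2(value + 1), over genes at 10 or more in at least 3 of the libraries compared, with 6 libraries a comparison and 12 for the interaction. The threshold was an adjusted p (Benjamini-Hochberg) of under 0.1. The paper's methods name no block, so the replicate number was added as an alternative. Cells were pooled and then divided among groups, and deviations from group means of same-numbered libraries correlated at 0.613, 0.602 and 0.657 between control and oxLDL, 0.599, 0.567 and 0.566 between LPS and oxLDL+LPS, and 0.266 to 0.566 between groups without and with LPS, over 13482 genes, which are not independent replicates. The numbers were therefore taken to pair the libraries. The paper describes its n as biological replicates and its data as coming from independent experiments. It does not state for these libraries that each number is a separate pool of mice. The p-values measure the spread between these libraries, part of which may be technical.

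The members and gene lists were chosen with earlier results of these data known. Named are the 10 members, up to 6 called genes with the smallest p per list and comparison, the partners of the members, and Adam17 and Rhbdf2. Of 37 signalling genes 36 matched a symbol. Positions and exon lengths are from GENCODE M21 on GRCm38, and promoters are from RefSeq. Scripts were tested on simulated data. Alternatives were all 12 libraries in a fit, filters, pseudocount, scaling, no variance trend, the block and leaving out each library.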

Additional observations from a re-analysis of the deposited data

How the results depend on the processing

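Of 870 values of a member under an alternative, 807 kept their direction and their side of the threshold, and all 10 members kept their direction with LPS under every alternative run. The effects of LPS passed the threshold throughout, except that of Tnfrsf12a without single libraries, given above, and in the fits with the replicate block without number 3 (adjusted p = 0.135 against control and 0.130 against oxLDL). Tnfsf10 and Tnfsf15 could not be tested where every library had to reach 10. The replicate block, with which the pairing enters the fit, called 3 members and 601 genes instead of 0 for oxLDL against control, 5 members and 1682 genes for oxLDL+LPS against LPS, and 0 members and 147 genes for the interaction, blocked within each LPS state. It changed no call of a member with LPS. Fitting all 12 libraries called 29 genes for oxLDL+LPS against LPS and 0 members. With libraries left out in turn, blocked fits included, 0 to 3 members and 0 to 1032 genes were called for oxLDL against control, 0 to 5 and 0 to 2755 for oxLDL+LPS against LPS, and 0 to 3 and 0 to 717 for the interaction. The highest counts came from blocked fits without number 3 in the first and without number 2 in the other comparisons. Those fits hold 2 pairs, or 2 pairs in each LPS state for the interaction, so their p rests mostly on the spread across genes. Without the block, leaving out oxLDL+LPS replicate 2 gave 91 genes against LPS and 6 for the interaction. The cause was not tested.

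Direction turned for differences near 0 that were not called. After quantile normalization the log2 difference between oxLDL+LPS and LPS was 0.0054 for Fas and 0.089 for Tnfrsf1a, and the interaction term of Tnfrsf1b was 0.061. After rescaling to the same total these were 0.076, 0.054 and 0.083, and that of Tnfrsf26 against LPS was 0.052. With libraries left out, the difference between oxLDL and control ran from -0.062 to 0.40 for Tnf, from -0.030 to 0.071 for Tnfrsf1b and from -0.10 to 0.23 for Tnfrsf12a. That between oxLDL+LPS and LPS ran from -0.14 to 0.10 for Fas, from -0.070 to 0.019 for Tnfrsf1a, from -0.094 to 0.14 for Tnfrsf1b, from -0.30 to 0.25 for Tnfrsf26 and from -0.32 to 0.18 for Tnfrsf12a. The interaction ran from -0.12 to 0.11 for Tnfrsf1b and from -0.42 to 0.081 for Tnfrsf12a. Values under 10 normalized counts, as of Tnfsf10 and Tnfsf15 without LPS, are too few reads for a fold between those groups.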

Other observations

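A few family genes had a library that stood apart, and they were chosen after their values were seen. Tnfrsf9, which encodes the receptor of 4-1BB ligand, had 64 normalized counts in the LPS library and 42 in the oxLDL+LPS library of number 2, against 2 to 12 in the other 4 libraries with LPS. Tnfsf18, which encodes GITR ligand, had 19 and 21 in the same pair and 3 to 11 in the others. Zfp36, which encodes the mRNA-destabilizing protein tristetraprolin, went the other way, with 3923 and 3446 in number 2 and 5384 to 8902 in numbers 1 and 3. Tnfsf11, which encodes RANKL, had 77, 32 and 21 in the LPS libraries, the order of the summed mesothelial and fibroblast genes, and 21, 25 and 7 in the oxLDL+LPS libraries.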
